A study of Drosophila pseudoobscura with 4 samples.

Results

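The let-7 complex of *Drosophila pseudoobscura* consists of the microRNAs dps-mir-100, dps-let-7 and dps-mir-125. They were taken by name from the deposited counts, as 3 of the 231 microRNAs listed there. The dataset had 2 male and 2 female small RNA libraries from adults of a wild-collected stock kept at 18 °C on cornmeal media with 12 h of light per day and collected at 7 days. The females were unfertilized. Each of the 2 sequencing runs held 1 male and 1 female library, and no treatment or mutant was involved. The question for the complex was how much its members differ from each other in level, and whether their level differs between the sexes.

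MicroRNAs are short RNAs that repress messenger RNAs carrying a match to their 5′ seed. In *D. melanogaster*, the members of the complex are cut from a single primary transcript that is switched on by the steroid hormone ecdysone at the end of larval life and stays on in the adult. There let-7 is needed for the maturation of the neuromuscular junction through its target abrupt, and let-7 and mir-125 together lower the temporal factor chinmo in the nervous system. The let-7 microRNA was first found in *Caenorhabditis elegans* as a regulator of the transition from larva to adult. The fly mir-125 is a relative of the worm lin-4, and mir-100 belongs to a family that is conserved across animals.

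In the *D. pseudoobscura* genome the complex lies on chromosome 4, the Muller element B, which is an autosome. With positions as in the microRNA annotation of the assembly used for the counts, dps-mir-100 runs from 21484265 to 21484364, dps-let-7 from 21485118 to 21485194 and dps-mir-125 from 21485468 to 21485577. The hairpins are separated by 753 and 273 bases, and the complex spans 1313 bases. In RefSeq genes of UCI_Dpse_MV25, the assembly of the reference table, dps-let-7 and dps-mir-125 fall between annotated genes, with LOC26533703 ending 840 bases before dps-let-7 and LOC4817075 starting 1027 bases after dps-mir-125. The first 13 bases of dps-mir-100 overlap the end of LOC26533703, a protein-coding gene. This table gives gene spans only, so the overlap cannot be assigned to an exon or a UTR.

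The libraries were shallow and uneven. Total counts were 5697 reads in the male and 7111 in the female library of the first run, and 67076 and 42754 in the second run. A level of 3 reads, taken as the lowest that can be told from none, corresponds to between 421.9 and 527 CPM (read counts scaled to a common library total) in the first run, and to 44.7 and 70.2 CPM in the second. The study describes the 2 libraries of each sex as biological replicates, while the labels do not say how the flies were grouped. The tests measure the spread between these libraries, which may be in part technical. Intervals given for single libraries cover counting error only, because reads without molecular identifiers are not independent molecules. The sex labels were checked against microRNAs of the gonads. The ovary list, made of dps-mir-318 with its neighbor dps-mir-994 and dps-mir-989, took 2 and 6 reads in the male libraries but 336 and 3473 reads in the female ones. Of the 19 microRNAs in the testis list only dps-mir-959 and dps-mir-964 were in the tables, and their sum was 1 and 10 reads for males and 0 for both females.

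Of the members, dps-let-7 was the most abundant in every library, dps-mir-125 came next, and dps-mir-100 was close to absent. All libraries together had 540 reads of the complex. Of these, 80.7% were dps-let-7 (436 reads, 95% exact binomial interval 77.2 to 84.0), 18.9% were dps-mir-125 (102 reads, 15.7 to 22.4) and 0.370% were dps-mir-100 (2 reads, 0.0449 to 1.33). The complex as a whole took 0.369% and 0.528% of the reads in the male libraries of the first and second run, and 0.197% and 0.353% in the female libraries.

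For dps-let-7, the microRNA that gives the complex its name, the counts were 19 and 287 reads for males, against 12 and 118 for females, in the order of the runs. Scaled to the library totals, these are 3335 and 4279 CPM in males and 1688 and 2760 CPM in females. Both male libraries were above both female libraries, an order found for 22.6% of the 84 microRNAs tested below, dps-let-7 among them. The first run carried most of the uncertainty, with 95% exact Poisson intervals of 2008 to 5208 CPM in the male and 872 to 2948 CPM in the female library, against 3798 to 4803 and 2285 to 3305 CPM in the second run. Within its library, dps-let-7 ranked at positions 21 and 24 in males and at position 30 in both female libraries.

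For dps-mir-125, the lin-4 relative, the counts were 2 and 66 reads for males, against 2 and 32 for females. These are 351 and 984 CPM in males and 281 and 748 CPM in females. Here the sexes overlapped, since the female library of the second run was above the male library of the first. The values of the first run rest on 2 reads each, with exact Poisson intervals of 42.5 to 1268 CPM in the male and 34.1 to 1016 CPM in the female library, and lie under the floor of 3 reads. Those of the second run were 761 to 1252 and 512 to 1057 CPM.

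For dps-mir-100, the member nearest to the protein-coding gene, there was 1 read in the male and 1 in the female library of the second run, and 0 in both libraries of the first. The exact Poisson interval for 1 read reached up to 83.1 CPM in the male and 130.3 CPM in the female library of the second run. In the libraries with 0 reads, 3 reads would be 527 CPM in the male and 421.9 CPM in the female. All of its values are at or under the floor, so no fold change between the sexes is given. At this depth its level could not be told from none in any library.

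**Figure D1:**
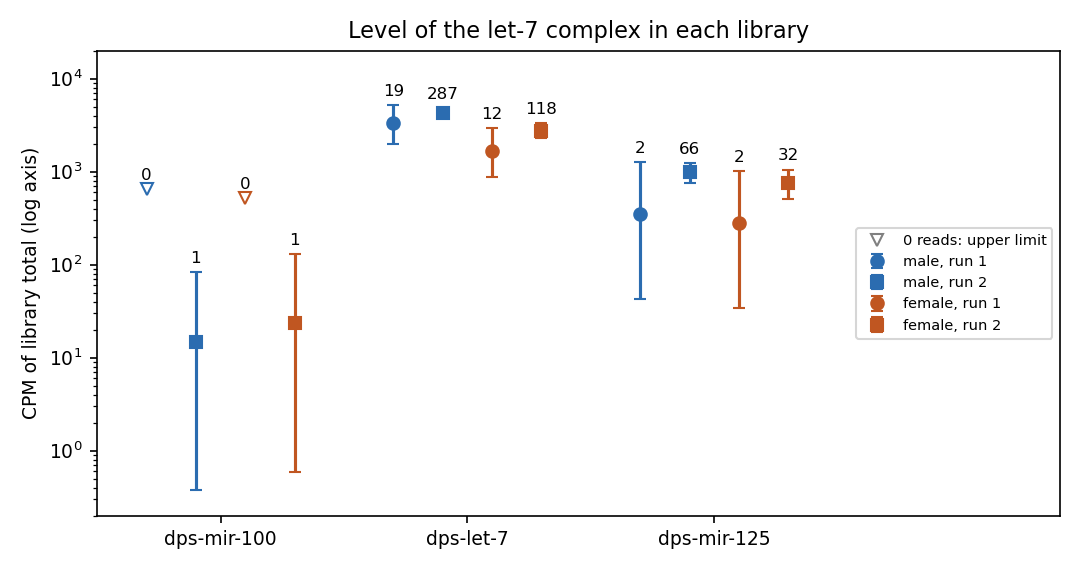
Level of each member of the let-7 complex in the 4 libraries, as CPM of the library total on a log axis, with 95% exact Poisson intervals as bars and the number of reads above each point. Triangles are the upper limits of that interval for libraries with 0 reads; dps-let-7 lies between 1688 and 4279 CPM, dps-mir-125 between 281 and 984, and dps-mir-100 has at most 1 read.

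The members were then compared with each other within each library, which needs no scaling between libraries. In males dps-let-7 had 9.50 and 4.35 times as many reads as dps-mir-125, and in females 6.00 and 3.69 times. The exact binomial intervals of this ratio were 2.29 to 84.1 and 3.32 to 5.77 in males, and 1.34 to 55.2 and 2.48 to 5.63 in females. They excluded equal numbers of reads in each of the 4 libraries, and they cover counting error only. Whether different microRNAs at the same level give the same number of reads was not tested. The counting was done on hairpins of 77 bases for dps-let-7 and 110 for dps-mir-125. Per base of hairpin, dps-let-7 was 13.6 and 6.21 times higher than dps-mir-125 in males and 8.57 and 5.27 times higher in females. The hairpin of dps-let-7 is the shorter, so dividing by length could only widen the difference and is no check of the order. The counts join both arms of a hairpin, so these ratios do not separate the mature products.

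The distance to dps-mir-100 was larger. In the second run dps-let-7 had 287 times its reads in the male library (95% interval 51.1 to 11375) and 118 times in the female library (20.8 to 4700). For dps-mir-125 the same ratios were 66 (11.4 to 2646) and 32 (5.35 to 1303). The intervals of dps-mir-125 and dps-mir-100 did not overlap in the libraries of the second run. In those of the first run they did, and dps-mir-125 and dps-mir-100 could not be ordered there. Per base of hairpin, with 100 bases for dps-mir-100, the levels in the second run were 55.6 CPM for dps-let-7, 8.95 for dps-mir-125 and 0.149 for dps-mir-100 in the male library. In the female library they were 35.8, 6.80 and 0.234 CPM per base.

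Unequal levels within a cluster were not particular to the complex. MicroRNAs within 10 kb of each other were joined into clusters, and 12 clusters had a member with at least 100 reads over the 4 libraries. In 4 of these 12, the let-7 complex among them, at least 1 member had 2 reads or fewer. The others were the clusters of dps-mir-2552, dps-mir-133 and dps-mir-33. In the cluster of dps-mir-9c the lowest member, dps-mir-79, had 4 reads where dps-mir-9c had 1226. At the other end by mean CPM, dps-mir-305 was 4.13 times higher than dps-mir-275, its neighbor. This ratio varied between libraries, and only in the first male library was dps-mir-305 the lower, with 13 reads against 22. In reads over the 4 libraries dps-mir-305 had 1792 and dps-mir-275 had 209. By that measure the highest and lowest members were closer in the clusters of dps-mir-277 (5172 and 748 reads) and dps-mir-318 (3396 and 418). These limits of 100 and 2 reads were chosen after the values were seen, and the comparison is a description with no test.

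**Figure D2:**
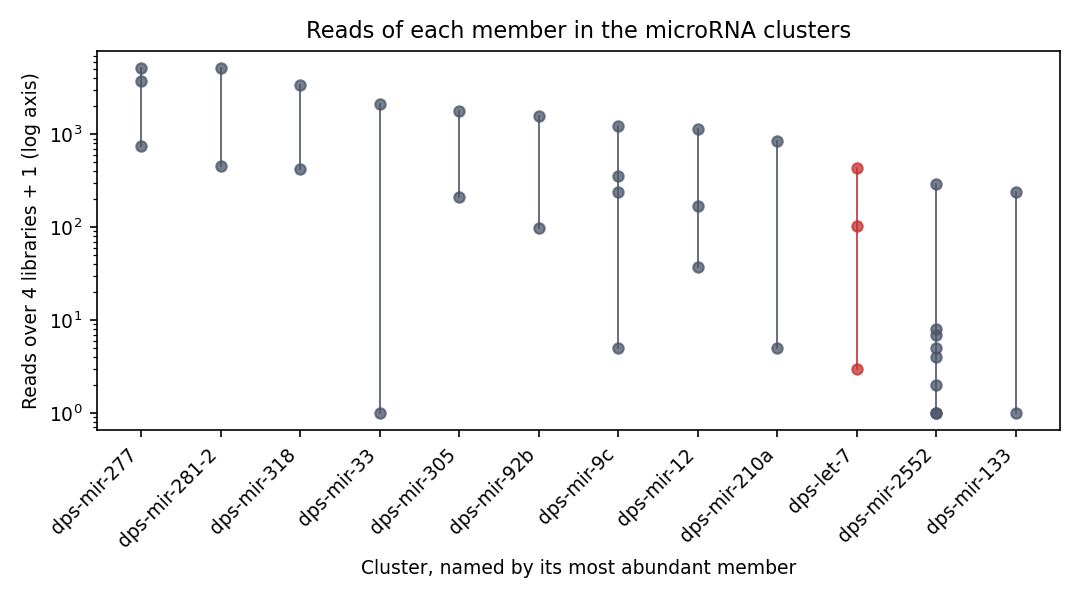
Reads over the 4 libraries, plus 1, for each member of the 12 microRNA clusters with a member of at least 100 reads, on a log axis. Each column is a cluster named by its most abundant member and each point is a microRNA; the let-7 complex is in red, with 436, 102 and 2 reads.

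Among the 84 microRNAs that reached a base mean of 1 (the mean read count after scaling with DESeq2's size factors), dps-let-7 ranked at position 29 and dps-mir-125 at position 52 in mean level. For these means, CPM were scaled with edgeR's TMM factors, which scale each library as a whole to allow for differences in composition. The mean of dps-let-7 was 3013 ± 1113 CPM (SD over the 4 libraries). Its neighbors in the ranking, dps-mir-274 above with 3229 ± 2292 CPM and dps-mir-281-1 below with 3009 ± 832 CPM, differed from it by less than their spread. The mean of dps-mir-125 was 566 ± 280 CPM, between dps-mir-316 with 621 ± 416 CPM and dps-mir-2517-4 with 529 ± 542 CPM, again within the spread. MicroRNAs tied to ecdysone in *D. melanogaster* were mostly more abundant. In the libraries, dps-mir-8, dps-bantam, dps-mir-14 and dps-mir-34 together took between 44.1% and 52.3% of the reads. In *D. melanogaster*, mir-8 acts in hormonal growth control, bantam promotes growth and blocks cell death, mir-14 limits the ecdysone receptor, and mir-34 falls as the hormone rises. The last, dps-mir-34, had 4 and 531 reads for males and 8 and 205 for females, fewer than dps-let-7 in the first run and more in the second. These ranks compare CPM per hairpin and not per base.

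**Figure D3:**
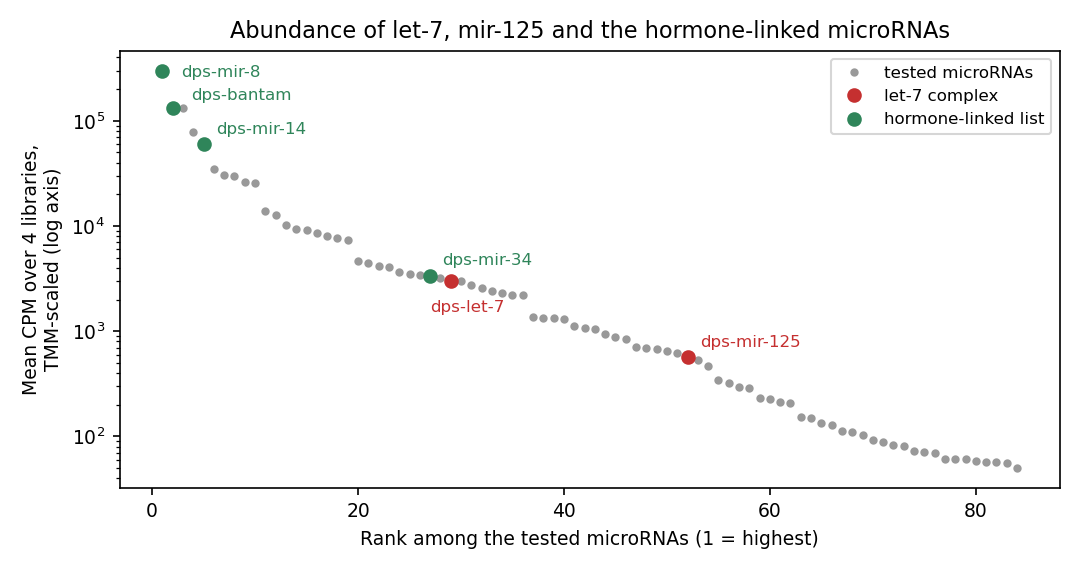
Mean level of the 84 tested microRNAs over the 4 libraries (TMM-scaled CPM, log axis) against their rank, with the 2 tested members of the let-7 complex in red and the list of 4 hormone-linked microRNAs in green. The level of dps-let-7 is at rank 29 and that of dps-mir-125 at rank 52, while dps-mir-8 is the highest.

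Males had more dps-let-7 than females in both runs, and the test did not call this difference. With TMM scaling, dps-let-7 had 3966 ± 260 CPM in the male and 2060 ± 126 CPM in the female libraries (SD, n = 2 each). The log2 fold change, male against female, was 0.94 with a standard error of 0.38 and a 95% interval from -0.05 to 1.94. In edgeR's quasi-likelihood test, fitted with run and sex as terms, the p-value was 0.0588, and 0.215 after Benjamini-Hochberg adjustment over the 84 microRNAs. A microRNA was called at an adjusted p under 0.1 and a difference of 25% or over. By this rule 13.1% of the 84 were called, 5.95% as higher in males and 7.14% as higher in females, and neither dps-let-7 nor dps-mir-125 was among them. Neither was called by DESeq2 or limma-voom, and neither had an unadjusted p under 0.05 in any of these tests. The third member, dps-mir-100, had too few reads to enter the test. Also, groups that do not overlap were common. Both male libraries were above both female libraries in TMM-scaled CPM for 27.4% of the 84 microRNAs, and in CPM of the library totals for 22.6%.

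The difference was of similar size in both runs. From the library totals, dps-let-7 was 1.98 times higher in the male than in the female library of the first run (95% exact interval for counting error 0.911 to 4.46) and 1.55 times higher in the second (1.247 to 1.94). In the second run the interval excludes equal levels, which compares these libraries and not the sexes. Males were above females in each run also after scaling with DESeq2's size factors, with 70.8 and 62.2 normalized reads in males and 43.6 and 43.7 in females.

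For dps-mir-125 the difference between the sexes was smaller and not called. The TMM-scaled level was 676 ± 393 CPM in the male and 456 ± 180 CPM in the female libraries (SD, n = 2 each). The log2 fold change was 0.66 with a standard error of 0.27 and a 95% interval from -0.05 to 1.37, with a p-value of 0.0622 in edgeR's quasi-likelihood test and 0.215 after adjustment. That standard error is below the 0.30 that counting error alone gives for these reads, so the interval is too narrow and the p-value too low. For dps-let-7 counting error alone gives 0.15. The unadjusted p of dps-mir-125 was 0.768 in DESeq2 and 0.292 in limma-voom. From the library totals, dps-mir-125 was 1.248 times higher in the male library of the first run (0.0905 to 17.2) and 1.31 times in the second (0.850 to 2.07), and neither interval excludes equal levels. The size of the fold change depended on the setting, from 0.12 with the ovary list left out to 0.66 as given. Its sign turned without the second male library (-0.31) and without the first female library (-0.23), in fits with the sex only.

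These fold changes have to be read against the shift of all microRNAs. The median log2 fold change of the 84 was 0.46, and 57 of them were above 0. By their log2 fold change, dps-let-7 was at position 25 and dps-mir-125 at position 34 from the most male-biased. Relative to the median, dps-let-7 was higher by 0.48 and dps-mir-125 by 0.20. Over edgeR, DESeq2 and limma-voom with the normalizations and filters tried on all 4 libraries, 11 settings in all, this distance ran from 0.35 to 0.59 for dps-let-7 and from 0.05 to 0.20 for dps-mir-125, while the median itself ran from 0.0088 to 0.60.

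**Figure D4:**
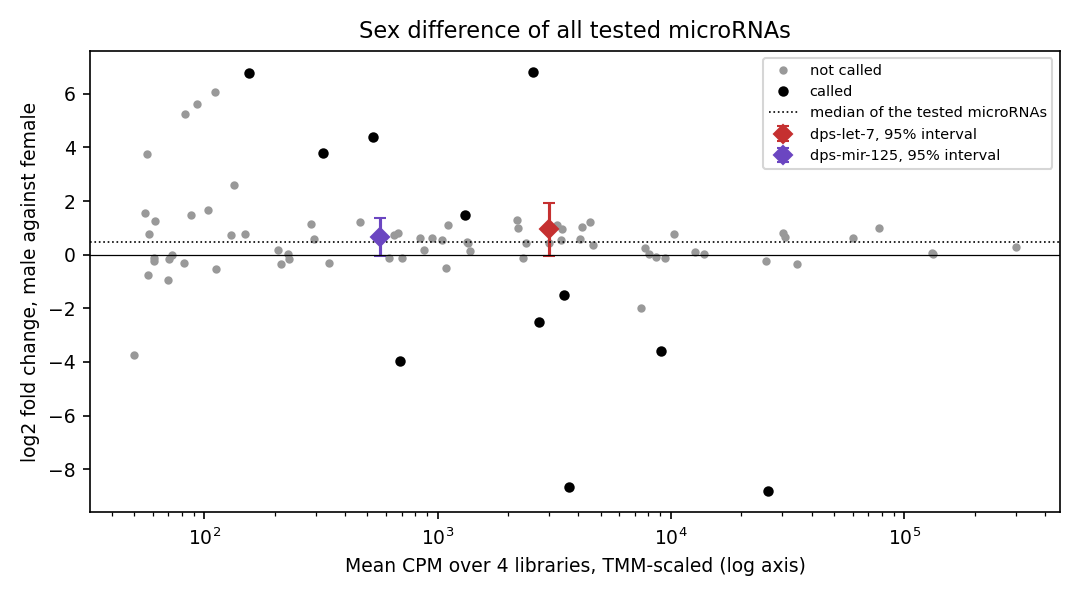
Log2 fold change of male against female for the 84 tested microRNAs, against their mean level (TMM-scaled CPM, log axis), with called microRNAs in black and the median of 0.46 as a dotted line. Diamonds are dps-let-7 at 0.94 and dps-mir-125 at 0.66, with 95% intervals from edgeR's test that both reach just below 0.

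**Figure D5:**
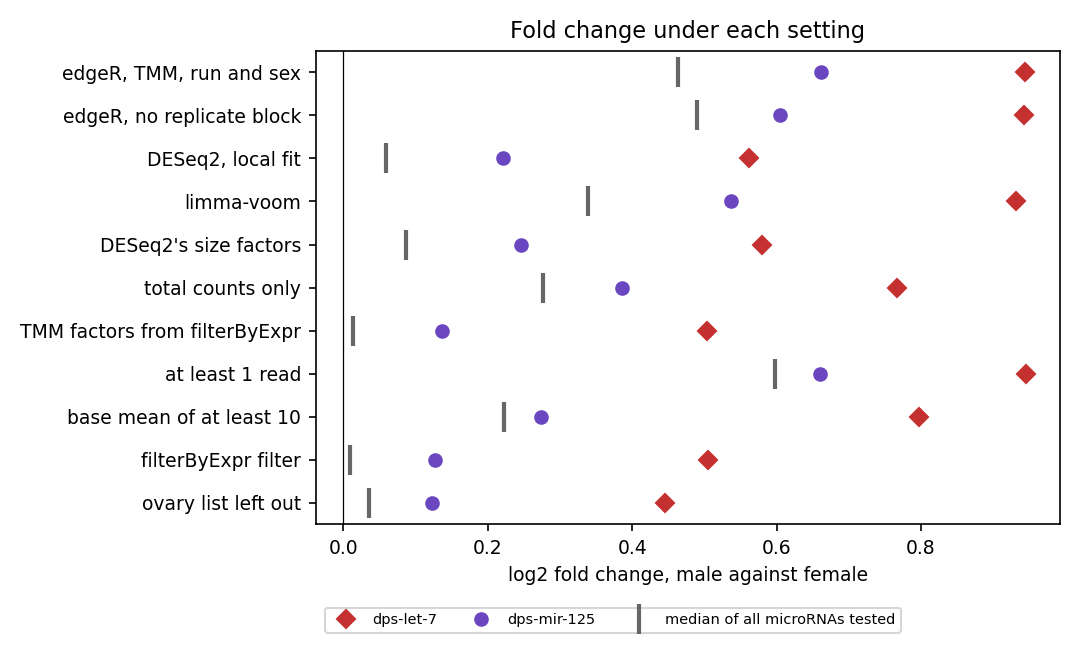
Log2 fold change of dps-let-7 (diamonds), of dps-mir-125 (circles) and the median of all microRNAs tested (vertical bars) under each of 11 settings of test, normalization and filter. In each setting dps-let-7 is to the right of dps-mir-125, and the members and the median move together when the normalization changes.

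The balance between the members was compared between the sexes next. The log2 ratio of dps-let-7 to dps-mir-125 reads, with 0.5 added to each count, was 2.96 and 2.11 in males and 2.32 and 1.87 in females. The means were 2.54 ± 0.60 for males against 2.09 ± 0.32 for females (SD, n = 2 each), a difference of 0.44 (exact permutation test, two-sided, p = 0.667). With 6 arrangements of the 4 libraries, the smallest p that this test allows is 0.333. The SDs include the difference between the runs. Within the runs the male ratio was higher by 0.64 and by 0.25, in the order of the runs, and with the runs as pairs the exact permutation p was 0.5, the smallest that 2 pairs allow. Neither test could reach the threshold, so the design cannot show whether the ratio differs between the sexes. In both sexes the ratio was lower in the second run, where dps-mir-125 was 2.80 times higher than in the first in males (95% interval 0.746 to 23.6) and 2.66 times in females (0.679 to 22.9). For dps-let-7 the second run was 1.28 times the first in males (0.807 to 2.16) and 1.64 times in females (0.902 to 3.26). All these intervals include equal levels of the single member between the runs. A change of the ratio between the runs was not tested.

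The log2 fold changes of dps-let-7 and dps-mir-125 differed by 0.28. Among the 12 pairs of clustered microRNAs whose base means both reached 5, the median difference was 0.50 and the range from 0.17 to 1.26, and the pair of the let-7 complex was the second closest, after dps-mir-318 and dps-mir-994. Pairs of the same cluster share members, so this is given as a description.

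The profile over the 4 libraries was compared with that of 51 other microRNAs whose base mean reached 10, as the Euclidean distance between log2 CPM values centered on the mean of each microRNA. The closest to dps-let-7 were dps-mir-2575, dps-mir-284 and dps-mir-9a, at distances of 0.19, 0.33 and 0.56, against a median of 1.59. The closest of these, dps-mir-2575, had 13 and 225 reads for males and 8 and 90 for females. For dps-mir-125 the closest were dps-mir-10, dps-mir-315 and dps-mir-285, at 0.38, 0.39 and 0.40, against a median of 1.47. The members were not each other's nearest: dps-mir-125 was at position 12 from dps-let-7, and dps-let-7 at position 15 from dps-mir-125, at a distance of 0.96. With 4 libraries and 2 reads of dps-mir-125 in each library of the first run, these distances are a description only. None of the 6 microRNAs named as closest was called between the sexes, with adjusted p-values in edgeR's test from 0.167 for dps-mir-284 to 0.513 for dps-mir-9a. Of the 6, 3 had an unadjusted p under 0.05 in edgeR's test, 1 in DESeq2 and 2 in limma-voom, against 21, 21 and 23 of all 84, and DESeq2 and limma-voom called none of them either. The 6 were chosen for their profile, so nothing is read from these counts.

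None of the 4 hormone-linked microRNAs was called between males and females either. Their log2 fold changes in edgeR's quasi-likelihood test were 0.28 for dps-mir-8 (adjusted p = 0.712), 0.03 for dps-bantam (0.990), 0.62 for dps-mir-14 (0.446) and 0.54 for dps-mir-34 (0.667). None of the 4 had an unadjusted p under 0.05 in edgeR, DESeq2 or limma-voom, against 21, 21 and 23 of all 84, and DESeq2 and limma-voom called none of them. With 13.1% of the 84 called by edgeR, a count of 0 of 4 does not set the list apart. Their median was 0.41, against 0.46 for all 84.

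Adult flies mix tissues, and a difference in the amount of a tissue cannot be told apart from a difference in its RNA. In *D. melanogaster* the complex is expressed in muscle and in neurons, so markers of both were set beside it. Of the muscle list only dps-mir-133 was in the tables. Its reads were 6 and 181 for males and 3 and 50 for females, or 1053 and 2698 CPM against 422 and 1169 CPM. In these CPM the sexes overlapped, since the female library of the second run was above the male library of the first. With TMM scaling, dps-mir-133 was called as higher in males (log2 fold change 1.46, standard error 0.33, adjusted p = 0.0699 in edgeR's test). The median log2 fold change of all 84 in that test was 0.46. The nervous system list (dps-mir-124, dps-mir-1000 and dps-mir-7) summed to 878 and 2162 CPM in males and 844 and 1520 CPM in females. It had 2 of its 3 members above 0 in each library of the first run, where dps-mir-7 was at 0, and 3 of 3 in those of the second. The sums of the first run rest on 5 reads in the male and 6 in the female library. In edgeR's test the log2 fold changes were 0.59 for dps-mir-124, 0.62 for dps-mir-1000 and -0.01 for dps-mir-7, and none was called. The ovary list took 4.73% and 8.12% of the reads of the female libraries and at most 0.0351% of those of the males. With that list left out of the table and the totals, a setting added after the data were seen, the log2 fold changes were 0.45 for dps-let-7 and 0.12 for dps-mir-125, and the median of the remaining 81 microRNAs was 0.04. Close values also came with the list kept and the TMM factors taken from the microRNAs that edgeR's filterByExpr keeps. They were 0.50 for dps-let-7, 0.14 for dps-mir-125 and 0.01 for the median. The part of the ovary microRNAs in these lower values was not tested. The part of muscle and neurons in the levels of the complex was not tested.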

How the data were processed

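Small RNAs of 2 male and 2 female libraries were sequenced on an Illumina MiSeq. After adapter trimming (Cutadapt) and mapping (HISAT2), the authors deposited, for each library, raw read counts per annotated microRNA from featureCounts, after removing microRNAs with identical copies. The deposited counts are not normalized. Counting on hairpins joins both arms.

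Samples were grouped by their titles. The replicate number was taken as the sequencing run, since each run held 1 male and 1 female library. Across the 84 tested microRNAs, the deviations of same-numbered libraries from their group means had a Pearson r of 0.567. With 2 libraries per sex, crossed pairs give the same value with the sign turned. Both libraries numbered 1 are also the shallower of their sex, so this value does not test the pairing. The main test was edgeR 4.0.16 (TMM, glmQLFit and glmQLFTest, R 4.3.3) with run and sex in the model, as in the study's own model, on microRNAs whose base mean reached 1. Standard errors are approximate, as they were derived from the log2 fold change and its F statistic. Log2 CPM used a prior count of 2. Alternatives used DESeq2 1.42.0, limma 3.58.1 and other normalizations and filters. Exact intervals (95%) and permutation tests used scipy 1.17.1. The fit was tested on simulated data.

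The members, lists and tests were chosen with earlier results of these data known. Named microRNAs were the members, their neighbors in level, the 3 closest in profile, and the fixed hormone, muscle, nervous system, ovary and testis lists. Those sharing a seed were also planned, but microRNA sequences were not used here. The clusters and pairs named were chosen after their values were seen. Positions were taken as 1-based from the annotation table that accompanies the study.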

Additional observations from a re-analysis of the deposited data

How the results depend on the processing

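The difference between the sexes kept its direction for dps-let-7 and dps-mir-125 in all 10 alternatives that used the 4 libraries, and was called in none of them. The log2 fold change of dps-let-7 ran from 0.45 to 0.95 (adjusted p from 0.165 to 0.801) and that of dps-mir-125 from 0.12 to 0.66 (adjusted p from 0.319 to 0.947). In edgeR with no replicate block the values were 0.94 (adjusted p = 0.679) and 0.60 (adjusted p = 0.901). The number of microRNAs called was 11, and 9 without the block. DESeq2 called 17, limma-voom 6, and edgeR with a base mean of at least 10 called 5. Leaving out each library, with the sex only in the model because the block then leaves no residual degrees of freedom, gave from 2 to 6 calls and a log2 fold change of dps-let-7 from 0.27 to 1.01. For dps-mir-125 it gave -0.31 to 1.18, with the sign reversed without the second male library (-0.31) and without the first female library (-0.23). The lone library of a sex is then assumed to vary like the others. The difference in the log2 ratio of dps-let-7 to dps-mir-125 was 0.24 to 0.45 in its 4 alternatives (0.44 as the mean within runs, replicate block, exact permutation p = 0.5, the smallest that 2 pairs allow) and 0.018 to 0.87 without each library. Depth limits dps-mir-125, with 2 reads per library in the first run, and dps-mir-100, with 0. For dps-let-7 counting error alone gives a standard error of 0.15, below the 0.38 of the test.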
